A study of Mus musculus with 59 samples.

Results

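RING1A and RING1B are the catalytic subunits of Polycomb repressive complex 1 (PRC1), and the experiment described here was designed to remove their activity while embryonic stem cells (ESCs) formed embryoid bodies (EBs). The comparison holds 4 of the 59 RNA-seq libraries of the series, namely 2 EB libraries without and 2 with 4-hydroxytamoxifen (4-OHT), chosen by their sample labels. All 4 carry ERT2-Cre, a Cre recombinase that 4-OHT activates, and a *Ring1A* point mutation on both alleles (ERT2-Cre; *Ring1a* pm/pm). The control EBs had not received 4-OHT, and their genotype is labelled *Ring1b* with no further mark. The study describes that allele as a conditional point mutant. The mutant EBs received 4-OHT, and their genotype is labelled *Ring1b* pm/pm, a state the study describes as catalytically dead for both proteins. The study's scheme gives 4-OHT to this line at the start of EB formation and samples 2 days later. ESCs were grown on mouse embryonic fibroblasts (MEFs) with LIF and the inhibitors SU5402, PD184352 and CHIR99021, and EBs formed in low attachment dishes over 2 days without these factors. The controls already carry mutant RING1A, and no library of 4-OHT on cells without these alleles is compared, so the drug and the *Ring1B* mutation cannot be told apart.

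RING1A and RING1B are E3 ligases that place a single ubiquitin on histone H2A (H2AK119ub1). Variant PRC1 complexes, such as the one built on PCGF1, carry most of this activity, and H2AK119ub1 helps recruit PRC2, the complex that methylates histone H3 (H3K27me3). In ESCs these marks cover CpG-rich promoters of developmental regulators, whose transcription stays low until a lineage is chosen.

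Expression was measured in TPM, a normalised transcript abundance in which every library sums to the same total and values of different genes are scaled by length. Of 24391 gene symbols, 6762 and 7015 were at 0 in control EBs 1 and 2, and 6216 and 6264 in mutant EBs 1 and 2. The sequencing depth behind the TPM values is unknown. The median fold between the 2 replicates of a group was 1.13 to 1.27 over the line's 4 groups. Nothing in the labels says that replicates are separate cultures, so p-values measure the spread between these samples, which may be technical. Bulk RNA cannot tell fewer cells of a type from less RNA per cell. The alleles are point mutants, so transcripts of the mutated genes are still made. *Rnf2*, which encodes RING1B (chr1:153316536-153347953 in mm9), had 72.8 and 67.0 TPM in control EBs and 64.6 and 59.8 TPM in mutant EBs. *Ring1*, which encodes RING1A, had 9.11 and 13.6 TPM in control EBs and 12.6 and 15.6 TPM in mutant EBs. Neither passed the test (adjusted p = 0.606 and 0.505, limma), and their levels do not check the labels.

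The EB label was checked against marker genes in the controls. Both control EBs had less of the naive ESC marker genes than the line's control ESCs, with *Klf4* at 37.2 and 65.1 TPM against 262 and 333 TPM. Both had more of the formative epiblast genes, with *Otx2* at 204 and 197 TPM against 7.86 and 6.61 TPM. *Pou5f1*, the core pluripotency factor, stayed between 1265 and 1596 TPM in all 4 EB libraries. Control EB 2 lay closer to the ESCs than control EB 1 in most of these markers. Its *Nanog* was 383 TPM against 218 TPM in control EB 1, its *Esrrb* 162 against 94.9 TPM, its *Fgf5* 22.7 against 44.0 TPM and its *Dnmt3b* 168 against 318 TPM. The blood marker *Ptprc* was at no more than 0.0536 TPM in the EB libraries.

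Most genes that differed were higher in mutant EBs. In limma on log2(TPM + 0.1), 763 of 20279 genes were higher in mutant than control EBs (3.76% of the genes tested) and 155 were lower (0.764%), at a Benjamini-Hochberg adjusted p below 0.05. Both shares are the background for the counts of every gene list below. Higher genes made up 83.1% of the 918 calls. Their log2 fold change exceeded 1 in 675 genes and 2 in 399 genes, whereas 125 lower genes passed -1 and 44 passed -2. The higher genes were mostly quiet in control EBs, with a median of 1.63 TPM against 7.94 TPM in mutant EBs, and 62 of them were at 0 in both control libraries. The lower genes were well expressed, with a median of 36.9 TPM in control EBs and 15.4 TPM in mutant EBs. Over all genes tested the median level in control EBs was 4.94 TPM.

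TPM fixes the total of each library, so the balance of calls was also examined after median-of-ratios scaling, which centres the typical gene. The median log2 fold change over all genes was 0.10 on the TPM scale and 0 after scaling. With scaling, 634 genes were higher (3.13%) and 295 lower (1.45%), so that 68.2% of calls were higher. Of the calls on the TPM scale, 616 higher and 151 lower genes were shared with those after scaling. Single libraries bore heavily on the number of calls. Without control EB 1 there were 10 higher and 23 lower genes, without control EB 2 28 and 29, without mutant EB 1 76 and 10, and without mutant EB 2 103 and 27. In each of these 4 fits all 763 higher and all 155 lower genes kept their direction. They had been chosen on the same libraries, so this is no separate support for the calls. Of the 119 named genes called in EBs, 7 to 13 stayed past the adjusted threshold in these fits.

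**Figure D1:**
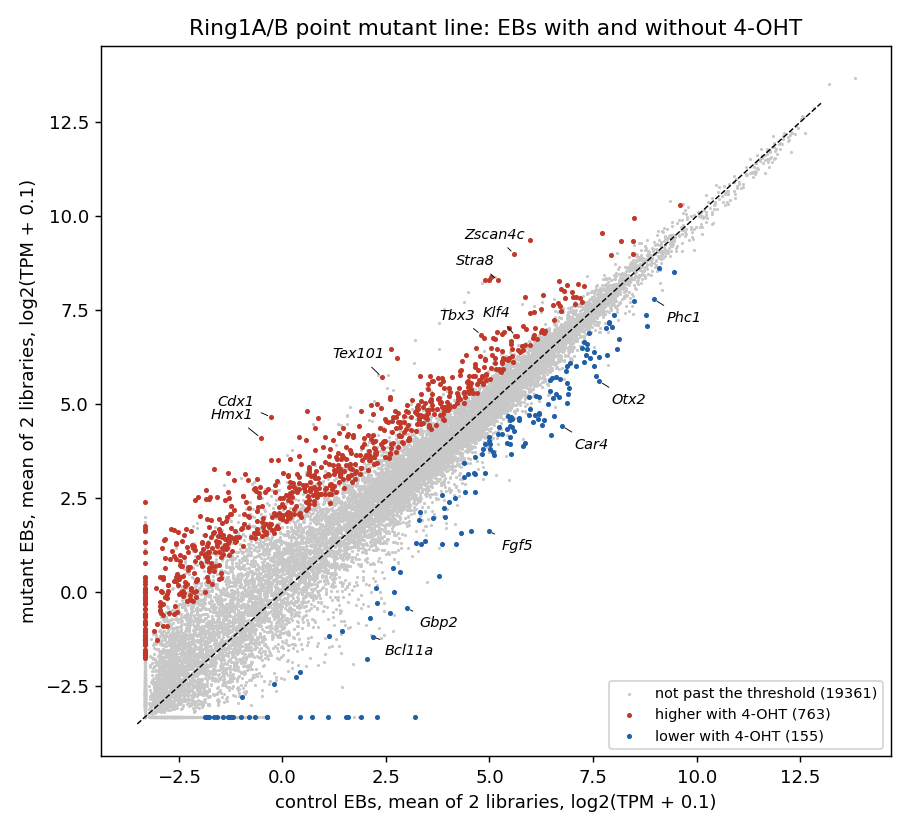
Mean log2(TPM + 0.1) over the 2 control EB libraries (x axis) and the 2 mutant EB libraries (y axis), 1 point per gene, with 763 genes higher with 4-OHT in red, 155 lower in blue and the dashed line marking equal levels. The red points lie mainly at low control levels, with a column at the left edge where both controls are at 0, and the blue points lie mainly at high control levels.

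Promoter sequences of the called genes were read from the mm9 genome (NCBIM37) at the annotated start of the transcript with the longest coding sequence. A window of 250 bases before to 50 bases after the start was called CpG-rich at an observed over expected CpG ratio of at least 0.6 and a GC content of at least 50%. Of 723 higher genes with a window, 56.3% were CpG-rich, against 45.4% of 130 lower genes and 51.2% of 17895 genes tested. Within the higher genes, 68.8% of 250 higher genes in the study's RING1B-bound Groups 1 to 3 were CpG-rich against 49.7% of 473 higher genes in none of these groups. Over all tested members with a window, called or not, the share was 69.4% in Group 1, 56.7% in Group 2 and 57.1% in Group 3. A gene that rose and a gene that fell, both among the named genes, show stretches before the start with many and with no CpGs. This pair was picked by hand after the values were seen, and does not stand for the higher and lower genes as sets. *Hmx1*, a homeobox gene of sensory neurons and the eye, rose, and *Gbp2*, an interferon-inducible GTPase, fell. The 250 bases before each start are printed 5′ to 3′ with every CpG in capitals, for *Hmx1* from chr5:35731257-35731506 (plus strand, 29 CpGs) and for *Gbp2* from chr3:142283316-142283565 (plus strand, 0 CpGs).
Hmx1: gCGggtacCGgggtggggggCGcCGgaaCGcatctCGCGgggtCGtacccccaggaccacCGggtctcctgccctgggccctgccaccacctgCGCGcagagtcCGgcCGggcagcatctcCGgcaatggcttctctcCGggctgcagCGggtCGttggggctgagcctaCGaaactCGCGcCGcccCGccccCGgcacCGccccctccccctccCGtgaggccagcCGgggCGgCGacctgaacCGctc
Gbp2: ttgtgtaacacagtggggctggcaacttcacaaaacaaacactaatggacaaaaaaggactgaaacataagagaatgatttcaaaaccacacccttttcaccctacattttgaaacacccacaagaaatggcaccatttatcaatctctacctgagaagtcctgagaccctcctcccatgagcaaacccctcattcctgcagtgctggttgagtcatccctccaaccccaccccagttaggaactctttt
*Hmx1* had 0.302 and 1.11 TPM in control EBs and 19.2 and 15.2 TPM in mutant EBs (log2 fold change 4.62 ± 0.70 SE, adjusted p = 0.0183, limma, n = 2 and 2). *Gbp2* had 8.91 and 7.12 TPM in control EBs and 0.738 and 0.557 TPM in mutant EBs (log2 fold change -3.44 ± 0.46 SE, adjusted p = 0.0138). The groups did not overlap for either gene, which was a condition for naming both among the highest and lowest calls. Of all 20279 genes tested, 6099 were higher and 2756 lower without overlap.

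Naive pluripotency genes were in part higher in mutant EBs. Their median level was 159 and 146 TPM in control ESCs and 53.5 and 62.8 TPM in control EBs. The list was not switched off in control EBs. Its summed level was 9106 and 11545 TPM in control ESCs, 10507 and 11430 TPM in control EBs and 15970 and 12678 TPM in mutant EBs. Of 18 naive pluripotency genes 5 were higher and 1 lower, with a median log2 fold change of 0.63, against 0.10 over all genes. *Tbx3*, a T-box repressor expressed in naive cells (chr5:120120678-120134733), had 22.4 and 34.3 TPM in control EBs and 110 and 120 TPM in mutant EBs (log2 fold change 2.05 ± 0.21 SE, adjusted p = 0.0099). *Tcl1*, a co-activator of AKT signalling, had 37.0 and 53.6 TPM in control EBs and 133 and 128 TPM in mutant EBs (1.55 ± 0.22, adjusted p = 0.0162). Both controls lay below both mutants for each gene. *Klf4*, a Krüppel-like factor of the naive network (chr4:55540013-55545347), had 37.2 and 65.1 TPM in control EBs and 104 and 122 TPM in mutant EBs (1.19 ± 0.26, adjusted p = 0.048). *Nanog*, a homeobox factor of the same network, had 218 and 383 TPM in control EBs and 613 and 679 TPM in mutant EBs (1.16 ± 0.24, adjusted p = 0.0414). Neither gene overlapped between the groups, but after median-of-ratios scaling *Klf4* (adjusted p = 0.0605) and *Nanog* (adjusted p = 0.0546) missed the threshold. *Esrrb* overlapped, at 94.9 and 162 TPM without and 160 and 219 TPM with 4-OHT (adjusted p = 0.233). *Tfcp2l1* had 11.3 and 19.06 TPM without and 28.6 and 51.3 TPM with 4-OHT (adjusted p = 0.0548), and passed the test after scaling. The lower naive gene was *Pecam1*, an adhesion molecule, at 67.1 and 80.4 TPM in control EBs and 36.8 and 36.1 TPM in mutant EBs (-1.01 ± 0.16, adjusted p = 0.021).

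Formative epiblast genes were in part lower. Of 18 such genes 7 were lower and 1 was higher, with a median log2 fold change of -1.42, and their summed level was 1706 and 1344 TPM in control EBs and 887 and 826 TPM in mutant EBs. *Fgf5*, the fibroblast growth factor that marks the postimplantation epiblast (chr5:98683203-98706049), had 44.0 and 22.7 TPM in control EBs and 3.06 and 2.91 TPM in mutant EBs (-3.36 ± 0.53, adjusted p = 0.0197). *Otx2*, a homeobox activator of the formative state (chr14:49277354-49287319), had 204 and 197 TPM in control EBs and 38.4 and 61.8 TPM in mutant EBs (-2.04 ± 0.25, adjusted p = 0.0119). Control and mutant EBs were well apart in both. *Car4*, a carbonic anhydrase, had 125 and 92.8 TPM in control EBs and 21.5 and 21.2 TPM in mutant EBs (-2.33 ± 0.22, adjusted p = 0.00902). *Zic2*, a zinc finger factor, had 121 and 122 TPM in control EBs and 34.9 and 53.8 TPM in mutant EBs (-1.48 ± 0.21, adjusted p = 0.0161). The mutant levels of these 4 genes stayed above those of control ESCs, where *Otx2* had 7.86 and 6.61 TPM and *Car4* 0.892 and 0.843 TPM. *Sall2* (-1.92 ± 0.40) and *Pou3f1* (-1.89 ± 0.40) were also lower, and *Pou3f1* missed the threshold after scaling (adjusted p = 0.0526). *Dnmt3b*, a de novo DNA methyltransferase, had 318 and 168 TPM in control EBs and 64.8 and 67.6 TPM in mutant EBs (adjusted p = 0.0525), and passed the test after scaling. The higher member was *Sox3*, a SOXB1 factor, at 8.68 and 9.72 TPM in control EBs and 31.5 and 25 TPM in mutant EBs (1.6 ± 0.28, adjusted p = 0.0266). None of 12 core pluripotency genes passed in limma, while 4 were lower and 0 higher at an unadjusted p below 0.05, and none passed after scaling.

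**Figure D2:**
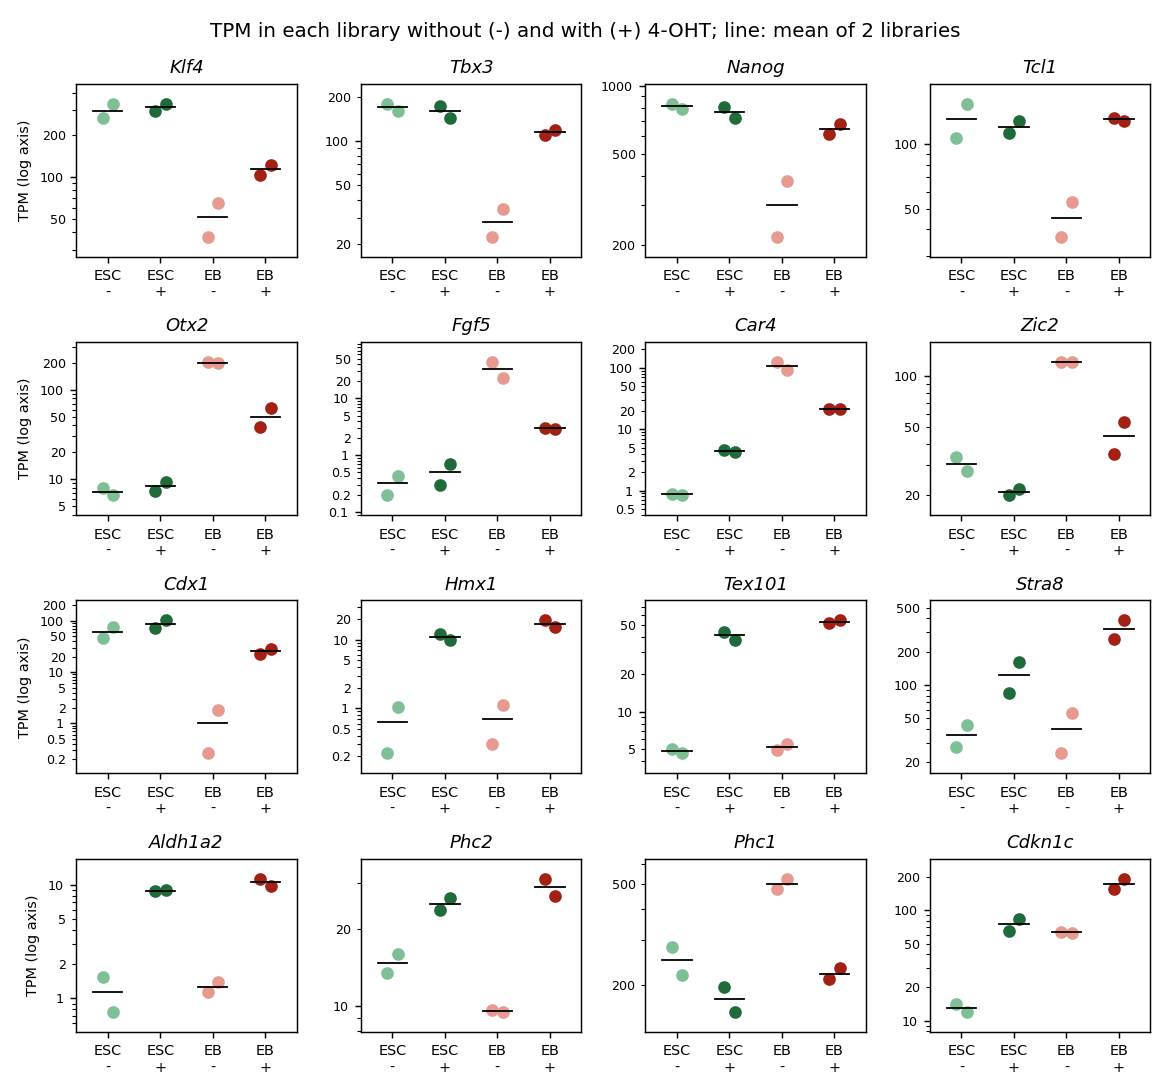
TPM of 16 genes in each library of the line (y axes, log scale), in ESCs and EBs without (-) and with (+) 4-OHT, with a point per library and a line at the mean of 2 libraries. *Klf4*, *Tbx3* and *Nanog* fell less from ESCs to EBs with 4-OHT than without, and *Tcl1* fell only without 4-OHT. *Otx2*, *Fgf5*, *Car4* and *Zic2* reached lower EB levels with 4-OHT.

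Homeobox and other patterning genes, the classical targets of Polycomb repression, held higher members in every family listed, although most members of each family did not pass the test. Of 39 *Hox* genes, which specify position along the body axis, 19 were higher and 0 lower in limma and after scaling (0 lower at an unadjusted p below 0.05), with a median log2 fold change of 2.60. Their summed level was 13 and 23 TPM in control EBs and 98.8 and 140 TPM in mutant EBs. *Hoxb7* had 0.359 and 0.147 TPM in control EBs and 5.05 and 6.35 TPM in mutant EBs (4.10 ± 0.51, adjusted p = 0.0121). *Hoxa10* had 0.483 and 0.178 TPM in control EBs and 4.84 and 8.08 TPM in mutant EBs (3.98 ± 0.59, adjusted p = 0.0168). *Hoxc9* followed the same pattern (4.01 ± 0.43, adjusted p = 0.0104). The *Hox* genes called with a mean of at least 1 TPM belonged to all 4 clusters, with *Hoxa7*, *a9*, *a10* and *a13*, *Hoxb7* and *b13*, *Hoxc4*, *c9*, *c10* and *c13*, and *Hoxd1*, *d8*, *d9*, *d10*, *d11* and *d13*.

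Of 78 other homeobox genes 32 were higher and 1, *Otx2*, lower (median 1.93). *Cdx1*, a caudal-type activator of *Hox* genes in the posterior embryo, had 0.260 and 1.81 TPM in control EBs and 22.8 and 27.8 TPM in mutant EBs (4.93 ± 0.68, adjusted p = 0.0146). It was already at 46.8 and 75 TPM in control ESCs, so the mutant EB level lay between those of control EBs and ESCs. *Pitx1*, a hindlimb and pituitary factor, had 0.248 and 0.152 TPM in control EBs and 4.56 and 7.01 TPM in mutant EBs (4.28 ± 0.57, adjusted p = 0.0138). *Dlx6*, a distal-less gene of the branchial arches, had 0.142 and 0 TPM in control EBs and 3.12 and 3.12 TPM in mutant EBs (4.37 ± 0.53, adjusted p = 0.0121). All 3 separated the groups. LIM homeobox genes included 3 higher members of 12, among them *Lhx2*, a forebrain and eye factor, at 0.916 and 0.725 TPM in control EBs and 6.43 and 9.11 TPM in mutant EBs (3.08 ± 0.35, adjusted p = 0.011). Of 14 *Nkx* genes 3 were higher, *Nkx2-3*, *Nkx2-4* and *Nkx2-5*, with log2 fold changes from 1.40 to 2.71.

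Of 16 T-box genes 7 were higher and 0 lower (median 1.80). *Tbx1*, a regulator of the pharyngeal arches, had 0.545 and 0.572 TPM in control EBs and 6.73 and 9.59 TPM in mutant EBs (3.63 ± 0.49, adjusted p = 0.0138). *Tbx15*, a limb and skin factor, had 0.170 and 0.521 TPM in control EBs and 4.77 and 6.60 TPM in mutant EBs (3.80 ± 0.53, adjusted p = 0.015). *Tbx20*, a heart factor, and *Tbx18* rose by 3.44 ± 0.52 and 2.90 ± 0.54 on the log2 scale. Forkhead genes were mixed, with 9 of 44 higher and 1, *Foxp1*, lower (median 0.60). *Foxc1*, a mesoderm factor, had 0.0381 and 0.0932 TPM in control EBs and 1.92 and 1.79 TPM in mutant EBs (3.58 ± 0.44, adjusted p = 0.0121). SOX genes numbered 3 higher and 1 lower of 19 (median 0.78), and the lower one, *Sox13*, had 20.9 and 20.9 TPM in control EBs and 10.2 and 11.2 TPM in mutant EBs (-0.96 ± 0.20, adjusted p = 0.0463). Of 6 GATA genes 2 were higher, and *Gata6*, the primitive endoderm regulator, had 3.99 and 3.73 TPM in control EBs and 12.7 and 11.3 TPM in mutant EBs (1.61 ± 0.28, adjusted p = 0.0257). Of 9 PAX genes (median 0.28) 2 were higher, *Pax1* (3.26 ± 0.61) and *Pax3* (3.16 ± 0.53), and of 5 *Zic* genes (median -0.89) *Zic1* was higher (3.64 ± 0.58) and *Zic2* lower. Of 38 tissue-specific bHLH genes 6 were higher, among them *Hand1*, a heart and trophoblast factor, at 0.480 and 0.686 TPM in control EBs and 5.29 and 6.09 TPM in mutant EBs (3.10 ± 0.53, adjusted p = 0.0256), and 0 were lower.

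**Figure D3:**
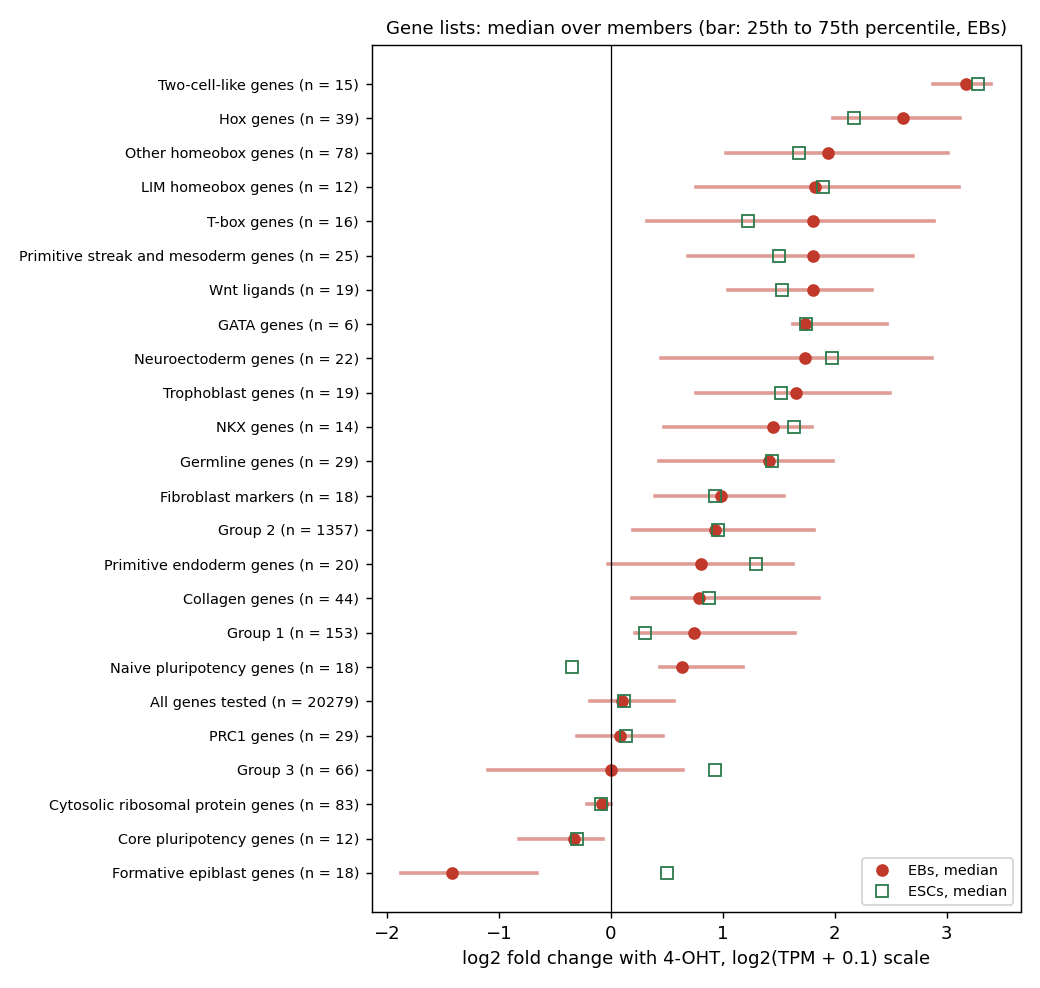
Median log2 fold change with 4-OHT over the tested members of each gene list (x axis, log2(TPM + 0.1) scale), as red points for EBs and green squares for ESCs, with a red bar from the 25th to the 75th percentile in EBs. Most developmental lists lie right of all genes tested in both cell states, whereas the naive and formative lists have EB and ESC medians on opposite sides of 0.

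Secreted signals and their pathways rose in part. Of 19 Wnt ligands 8 were higher and 0 lower (median 1.80). *Wnt11*, a noncanonical ligand, had 0.381 and 0.992 TPM in control EBs and 3.94 and 3.72 TPM in mutant EBs (2.44 ± 0.51, adjusted p = 0.0439). *Wnt3a*, a canonical ligand of the primitive streak, had 0 and 0.203 TPM in control EBs and 1.17 and 0.939 TPM in mutant EBs (2.72 ± 0.59, adjusted p = 0.048). After median-of-ratios scaling 6 Wnt ligands passed, and *Wnt3a* (adjusted p = 0.0547) and *Wnt11* (adjusted p = 0.0501) did not. Of 31 TGF-beta family ligands 9 were higher and 0 lower (median 0.76). *Tgfb1* had 8.92 and 4.00 TPM in control EBs and 37.5 and 35.6 TPM in mutant EBs (2.59 ± 0.34, adjusted p = 0.0138). *Bmp1*, a protease named with this family that cleaves procollagen, rose by 2.06 ± 0.35 on the log2 scale. Of 22 FGF ligands 2 were lower, *Fgf5* and *Fgf15*, and 0 higher in limma, with a median of 0.07. At an unadjusted p below 0.05, 4 FGF ligands were lower and 2 higher, and after scaling 0 were higher. *Fgf15* had 70.8 and 45.0 TPM in control EBs and 14.3 and 15.4 TPM in mutant EBs (-1.92 ± 0.33, adjusted p = 0.0245). *Pdgfa*, a ligand of the PDGF receptor alpha (chr5:139451968-139473324), had 19.9 and 20.2 TPM in control EBs and 82.0 and 61.7 TPM in mutant EBs (1.82 ± 0.25, adjusted p = 0.0143). Its receptor gene *Pdgfra* had 1.28 and 0.966 TPM in control EBs and 4.62 and 4.44 TPM in mutant EBs (1.93 ± 0.35, adjusted p = 0.0291).

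Of 19 genes of retinoic acid synthesis, transport and reception 6 were higher. *Aldh1a2*, which makes retinoic acid from retinal, had 1.14 and 1.40 TPM in control EBs and 11.3 and 9.80 TPM in mutant EBs (2.97 ± 0.37, adjusted p = 0.0123). The retinol carrier *Rbp4* rose as well (2.10 ± 0.24, adjusted p = 0.011). Of 22 ephrins and Eph receptors 1, *Efna4*, was higher in limma (0.91 ± 0.17, adjusted p = 0.0321), and it missed the threshold after scaling (adjusted p = 0.0601). The share of this list, 4.55%, was near the 3.76% of all genes tested.

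Germline genes formed the next group. They are silent in most somatic cells, and in ESCs variant PRC1 with PCGF6 takes part in their repression. Of 29 germline genes 13 were higher and 0 lower (median 1.41), and their summed level was 1339 and 1104 TPM in control EBs and 2123 and 2114 TPM in mutant EBs. *Tex101*, a germ cell surface protein (chr7:25453031-25457069), had 4.90 and 5.47 TPM in control EBs and 51.5 and 54.2 TPM in mutant EBs (3.33 ± 0.18, adjusted p = 0.00282). *Stra8*, the retinoic acid responsive gene of meiotic entry (chr6:34870163-34889342), had 24.1 and 55.5 TPM in control EBs and 259 and 383 TPM in mutant EBs (3.10 ± 0.46, adjusted p = 0.0174). The groups stood far apart in both. *Tdrd1*, a tudor protein of the piRNA pathway, rose by 2.56 ± 0.55 (adjusted p = 0.0472) and *Nobox*, an oocyte homeobox factor, by 3.42 ± 0.75 (adjusted p = 0.0491), the latter missing the threshold after scaling (adjusted p = 0.0536).

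Promoters of germline genes were searched for CACGTG, the E-box read by MAX-containing dimers, and for GCGGGAA, an E2F-type motif, over the 300-base windows. CACGTG is its own reverse complement, and GCGGGAA was searched on both strands. CACGTG was in 12 of 29 germline windows (41.4%), in 6 of the 13 higher germline genes (46.2%), in 10.5% of windows of all higher genes and in 8.73% of windows of all genes tested. GCGGGAA was in 9 of 29 germline windows (31%) and in 3 of the 13 higher germline genes (23.1%). It was in 7.47% of windows of all higher genes and in 6.97% of windows of all genes tested. A match describes letters in a window and not a bound site. The 250 bases before the start are shown for 4 of the 6 higher germline genes with CACGTG, chosen after their values were seen, with that motif in capitals and each read 5′ to 3′ on the strand of the gene. They lie at chrX:131011030-131011279 (*Taf7l*, minus strand), chr3:40512527-40512776 (*Slc25a31*, plus strand), chr13:113442519-113442768 (*Ddx4*, minus strand) and chr15:88813089-88813338 (*Mov10l1*, plus strand).
Taf7l: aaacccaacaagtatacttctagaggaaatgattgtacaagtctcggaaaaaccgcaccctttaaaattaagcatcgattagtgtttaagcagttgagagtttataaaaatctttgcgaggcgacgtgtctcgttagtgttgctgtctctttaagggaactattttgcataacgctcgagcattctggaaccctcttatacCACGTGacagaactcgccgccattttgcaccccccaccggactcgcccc
Slc25a31: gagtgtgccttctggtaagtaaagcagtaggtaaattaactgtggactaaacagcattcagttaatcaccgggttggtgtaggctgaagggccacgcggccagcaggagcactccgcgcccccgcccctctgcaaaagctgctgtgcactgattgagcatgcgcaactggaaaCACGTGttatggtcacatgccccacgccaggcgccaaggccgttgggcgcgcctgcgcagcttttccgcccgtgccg
Ddx4: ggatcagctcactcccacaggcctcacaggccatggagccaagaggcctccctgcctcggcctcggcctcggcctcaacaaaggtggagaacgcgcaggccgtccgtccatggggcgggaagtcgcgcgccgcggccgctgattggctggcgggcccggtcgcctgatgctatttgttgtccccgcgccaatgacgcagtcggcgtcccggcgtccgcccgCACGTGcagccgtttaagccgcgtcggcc
Mov10l1: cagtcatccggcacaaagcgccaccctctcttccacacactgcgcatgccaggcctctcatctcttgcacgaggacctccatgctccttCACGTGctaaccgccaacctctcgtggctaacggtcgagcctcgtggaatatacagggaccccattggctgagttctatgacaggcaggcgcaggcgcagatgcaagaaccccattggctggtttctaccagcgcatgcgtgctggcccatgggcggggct
The motif began 49, 77, 29 and 161 bases before the start, in that order. *Taf7l*, a testis-enriched TFIID subunit paralog, had 5.65 and 6.34 TPM in control EBs and 31.7 and 39.5 TPM in mutant EBs (2.54 ± 0.20, adjusted p = 0.00758). *Slc25a31*, a germ cell ADP/ATP carrier, had 17.1 and 7.40 TPM in control EBs and 49.8 and 35.9 TPM in mutant EBs (1.90 ± 0.39, adjusted p = 0.0424). Both were above the controls in each mutant library. *Ddx4*, the VASA helicase, had 18.6 and 34.4 TPM in control EBs and 71.2 and 113 TPM in mutant EBs (1.82 ± 0.35, adjusted p = 0.0338). *Mov10l1*, a piRNA helicase, had 12 and 18.4 TPM in control EBs and 37.7 and 48.9 TPM in mutant EBs (1.52 ± 0.23, adjusted p = 0.0184). The higher germline genes without CACGTG in the window, such as *Tex101* and *Stra8*, include the 4 with the greatest log2 fold changes of the list.

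Genes of the 2-cell-like state, a rare ESC state that resembles the early embryo, were scattered between replicates. Of 15 such genes 3 were higher in limma, *Zscan4c*, *Zscan4f* and *Zscan4d*, and none after median-of-ratios scaling. The median log2 fold change of the list was 3.17, and 3.04 after scaling. Without overlap between the groups, 13 of the 15 genes were higher, as were 6099 of all 20279 genes tested. *Zscan4c* had 83.2 and 27.5 TPM in control EBs and 687 and 384 TPM in mutant EBs (3.42 ± 0.72, adjusted p = 0.0452, 0.0595 after scaling). The summed level of the list was 339 and 108 TPM in control EBs and 2773 and 1409 TPM in mutant EBs, so the groups did not overlap although each differed between its own libraries. The *Zscan4* genes are near-identical copies that share reads, so their separate values are uncertain.

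Markers of several lineages rose side by side. Of 25 primitive streak and mesoderm genes 7 were higher (median 1.80), of 20 primitive endoderm genes 6 (0.80), of 19 trophoblast genes 7 (1.65) and of 22 neuroectoderm genes 9 (1.73), and 0 members of these lists were lower at an adjusted p below 0.05 in limma or after scaling. *T*, brachyury, had 0.223 and 0.273 TPM in control EBs and 1.64 and 3.64 TPM in mutant EBs (2.88 ± 0.60, adjusted p = 0.043). *Col4a1*, a basement membrane collagen of the primitive endoderm, had 12.2 and 16.8 TPM in control EBs and 40.9 and 64.7 TPM in mutant EBs (1.84 ± 0.25, adjusted p = 0.0143). *Esx1*, a placental homeobox gene, had 4.84 and 9.41 TPM in control EBs and 57.9 and 96.3 TPM in mutant EBs (3.45 ± 0.41, adjusted p = 0.0115). Both mutant libraries exceeded both controls in these genes, which belong to unlike lineages. *Nes*, the neural progenitor filament nestin, had 2.31 and 3.46 TPM in control EBs and 14.5 and 21.8 TPM in mutant EBs (2.61 ± 0.29, adjusted p = 0.0107). Other defining markers did not pass, including *Pax6* at 1.18 and 1.25 TPM in control EBs and 1.03 and 1.40 TPM in mutant EBs, *Eomes* (adjusted p = 0.124), *Sox17* (0.0633), *Foxa2* (0.36), *Cdx2* (0.0806) and *Tfap2a* (0.424), and *Elf5* was at 0 in 3 of 4 EB libraries.

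Fibroblast genes were followed because ESCs were kept on MEFs. Of 18 fibroblast markers 4 were higher, *Twist2*, *Col1a1*, *Col1a2* and *Thy1*. Their summed level was 37.7 and 44.5 TPM in control EBs and 86.5 and 89.6 TPM in mutant EBs. In the line's ESCs, on MEFs, the sum was 65.1 and 57.4 TPM without and 138 and 106 TPM with 4-OHT. *Col1a1* had 3.01 TPM in each control EB and 11.7 and 9.35 TPM in mutant EBs (1.77 ± 0.27, adjusted p = 0.019), and *Dcn*, a fibroblast proteoglycan, was at or below 0.656 TPM in all 4 EB libraries. *Col3a1*, another fibrillar collagen gene, had 0.437 and 0.501 TPM in control EBs and 1.80 and 1.17 TPM in mutant EBs, without overlap, and did not pass the test (1.46 ± 0.43, adjusted p = 0.107). Of 44 collagen genes, some of which are also fibroblast or endoderm markers, 11 were higher and 1, *Col18a1*, was lower (median 0.79). The part of MEF RNA in the collagen and mesoderm results was not tested. Of 47 keratin genes 5 were higher (10.6%, against 3.76% of all genes tested). *Krt7* had 3.93 and 2.70 TPM in control EBs and 9.32 and 11.7 TPM in mutant EBs (1.65 ± 0.36, limma, adjusted p = 0.0491, 0.0567 after scaling).

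Among growth control genes, 2 of 7 CDK inhibitors were higher (28.6%, against 3.76% of all genes tested). *Cdkn1c*, which encodes p57 and is imprinted, had 63.7 and 62.6 TPM in control EBs and 155 and 194 TPM in mutant EBs (1.45 ± 0.18, adjusted p = 0.0121). *Cdkn2d* rose by 0.87 ± 0.16 (adjusted p = 0.0336, 0.058 after scaling). Of 20 p53 target genes 4 were higher (20%), although the median of the list was -0.01. *Pmaip1*, the proapoptotic NOXA gene, had 39.4 and 38.7 TPM in control EBs and 105 and 128 TPM in mutant EBs (1.57 ± 0.14, adjusted p = 0.00902). *Perp*, a desmosomal p53 target, had 9.83 and 8.91 TPM in control EBs and 25.1 and 28.1 TPM in mutant EBs (1.49 ± 0.19, adjusted p = 0.0132). *Phlda3* (0.94 ± 0.14) and *Btg2* (0.86 ± 0.16) were the other two, and *Btg2* missed the threshold after scaling (adjusted p = 0.0518).

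Polycomb genes themselves changed in a few canonical PRC1 subunits. Of 29 PRC1 genes 3 were higher and 1 lower (10.3% and 3.45%, against 3.76% and 0.764% of all genes tested). *Cbx8*, a chromodomain subunit, had 2.29 and 2.54 TPM in control EBs and 14.6 and 9.16 TPM in mutant EBs (2.22 ± 0.43, adjusted p = 0.0354). The groups did not overlap. *Phc2*, a polyhomeotic subunit, had 9.69 and 9.52 TPM in control EBs and 31.3 and 26.9 TPM in mutant EBs (1.58 ± 0.18, adjusted p = 0.011), whereas its paralog *Phc1* had 479 and 525 TPM in control EBs and 210 and 232 TPM in mutant EBs (-1.19 ± 0.17, adjusted p = 0.0151). Of 11 PRC2 genes none passed in limma, 1 was higher at an unadjusted p below 0.05, and none passed after scaling. Of 9 genes of H2AK119ub1 removal 0 passed by any of these counts.

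Ribosomal, metabolic and 2 other lists held no call. Of 83 cytosolic ribosomal protein genes (median -0.08), 80 oxidative phosphorylation genes (0.14), 19 glycolysis genes (-0.25), 12 immediate early genes (0.42) and 54 clustered protocadherins (0.55), none passed in limma. At an unadjusted p below 0.05 these lists held 12 lower ribosomal genes, 21 higher and 2 lower oxidative phosphorylation genes, 3 lower glycolysis genes, 3 higher immediate early genes and 10 higher protocadherins. After median-of-ratios scaling 2 ribosomal and 1 oxidative phosphorylation gene were lower.

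The study sorted RING1B target genes by how RING1B binding changes from ESCs to EBs in another line, with gain in Group 1, no change in Group 2 and loss in Group 3. The question for these EBs is whether each group depends on the catalytic activity. Groups 1 to 3 held 1576 of 20279 genes tested (7.77%), 257 of the 763 higher genes (33.7%) and 10 of the 155 lower genes (6.45%). Of 153 Group 1 genes 28 were higher and 0 lower (18.3%, median 0.74), and their median level was 2.38 and 3.70 TPM in control EBs and 4.91 and 6.91 TPM in mutant EBs. No Group 1 gene was lower after scaling, where 22 were higher. Of 1357 Group 2 genes 227 were higher (16.7%) and 4 lower (median 0.93), and their median level was 0.482 and 0.621 TPM in control EBs and 1.47 and 2.02 TPM in mutant EBs. Both mutant libraries lay above both controls in each of these groups. Of 66 Group 3 genes 2 were higher and 6 lower (median 0.01), and their median level overlapped, at 5.18 and 6.83 TPM in control EBs and 4.64 and 5.91 TPM in mutant EBs. Without control EB 1 or mutant EB 2 the Group 3 median turned sign, as did scaling, within -0.39 to 0.20 over the 4 fits with a library left out.

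Within Group 1, *Klf4*, *Tbx3* and *Pdgfa*, which the study follows, were among the higher genes, as was *Tgfb1*. *Otop1*, a proton channel gene, had 0.0964 and 0.118 TPM in control EBs and 1.06 and 1.83 TPM in mutant EBs (2.86 ± 0.63, adjusted p = 0.0493). The uncharacterised *6030419C18Rik* had 1.28 and 3.48 TPM in control EBs and 12.5 and 15.3 TPM in mutant EBs (2.65 ± 0.48, adjusted p = 0.0297). The lower genes of Group 3 were *Fgf5*, *Bcl11a*, *Otx2*, *Pou3f1*, *2610035F20Rik* and *Zic2*, of which *Fgf5*, *Otx2*, *Pou3f1* and *Zic2* are also formative epiblast genes. *Bcl11a*, a zinc finger factor of blood and neurons, had 4.72 and 4.16 TPM in control EBs and 0.318 and 0.368 TPM in mutant EBs (-3.36 ± 0.42, adjusted p = 0.0123). *Galnt3*, a mucin-type glycosyltransferase, was higher, at 2.60 and 1.92 TPM in control EBs and 8.97 and 11.8 TPM in mutant EBs (2.15 ± 0.33, adjusted p = 0.0187), as was *Sox3*. The other genes of Group 3 that the study follows did not pass. *Sox4* had 50.2 and 51.8 TPM in control EBs and 32.9 and 37.6 TPM in mutant EBs (-0.54 ± 0.19, adjusted p = 0.165), and *Grhl2*, an epithelial factor, had 31.5 and 10.6 TPM in control EBs and 6.99 and 6.79 TPM in mutant EBs (-1.39 ± 0.58, adjusted p = 0.23).

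Groups 1 to 3 leave out most genes that change from ESCs to EBs, so 2 broader lists were taken from control EBs against control ESCs of the *Pcgf1* line (5 and 4 libraries), at an adjusted p below 0.05 and a log2 change beyond 2. Of 727 genes higher in those control EBs, 33 were higher and 42 lower in the mutant EBs here (4.54% and 5.78%, median -0.02). Over all genes tested these shares were 3.76% and 0.764%. Of 805 genes lower in those control EBs, 126 were higher and 1 lower (15.7% and 0.124%, median 0.77). The genes that fall as EBs form in the *Pcgf1* line thus held few lower calls here. Those that rise held a share of higher calls near that of all genes and a larger share of lower calls.

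At the ends of the fold change range stood rows with a whole group at 0. *A230065H16Rik* was at 0 in both controls and had 5.73 and 4.63 TPM in mutant EBs, *Duoxa2*, a maturation factor of dual oxidase, 4.03 and 2.39 TPM, *Zar1*, an oocyte factor, 1.99 and 2.90 TPM, and *2610016A17Rik* 3.53 and 2.56 TPM. The 12 highest log2 fold changes were taken among calls with a mean of at least 1 TPM and no overlap between the EB groups. Of these 12 genes, those above 0 in both control libraries were *Cdx1*, *Hmx1*, *Matn4* and *Atp6v1c2*. *Matn4* is a matrilin of the extracellular matrix (4.57 ± 0.44, adjusted p = 0.0099, limma). *Atp6v1c2* is a subunit of the vacuolar proton pump (4.50 ± 0.42, adjusted p = 0.00922). The forkhead gene *Foxe1*, *Hoxd8* and the noncoding *Mira* were at 0 in control EB 1 and at 0.500, 0.689 and 0.932 TPM in control EB 2, and had at least 5.55 TPM in each mutant EB. On the lower side *G6pc2*, a glucose-6-phosphatase subunit, was listed at 0 in both mutant EBs against 0.848 and 1.82 TPM in the controls, and *Tmem154* had 3.04 and 5.34 TPM in control EBs and 0.209 and 0.182 TPM in mutant EBs (-3.81 ± 0.45, adjusted p = 0.0115). The other lowest rows were short RNA genes (*Mir7666*, *Mir466i*, *Mir6913*, *Mir7675*, *Mir6954*, *Mir7035* and *Rnu11*), all listed at 0 in both mutant EBs.

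The line's ESCs were also compared without and with 4-OHT, with 2 libraries in each group and the same genotypes. ESCs and EBs differ in medium, and the sample labels used here do not give the 4-OHT schedule of the ESCs. There 475 genes were higher (2.34%) and 40 lower (0.197%). The EB calls were set beside these ESC values, which come from other libraries of the same fit. Of the 763 genes higher in EBs, 263 were also higher in ESCs, which is 34.5% of the EB list and 55.4% of the ESC list. Their median ESC log2 fold change was 1.44 and 731 were above 0, against a median of 0.12 over all genes. Of the 155 lower genes 12 were also lower in ESCs (7.74% of the EB list and 30% of the ESC list), with a median ESC log2 fold change of -0.25 and 104 below 0. The median log2 fold change of *Hox* genes was 2.60 in EBs and 2.17 in ESCs, that of germline genes 1.41 and 1.44, that of T-box genes 1.80 and 1.22, that of tissue-specific bHLH genes 0.47 and 0.91, and that of PAX genes 0.28 and 0.90. Group 1 had 28 higher genes in EBs and 2 in ESCs, and medians of 0.74 and 0.31. *Tbx3*, *Klf4* and *Pdgfa* had ESC log2 fold changes of -0.10, 0.09 and -0.08. Group 3 had a median of 0.93 in ESCs with 9 higher genes.

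**Figure D4:**
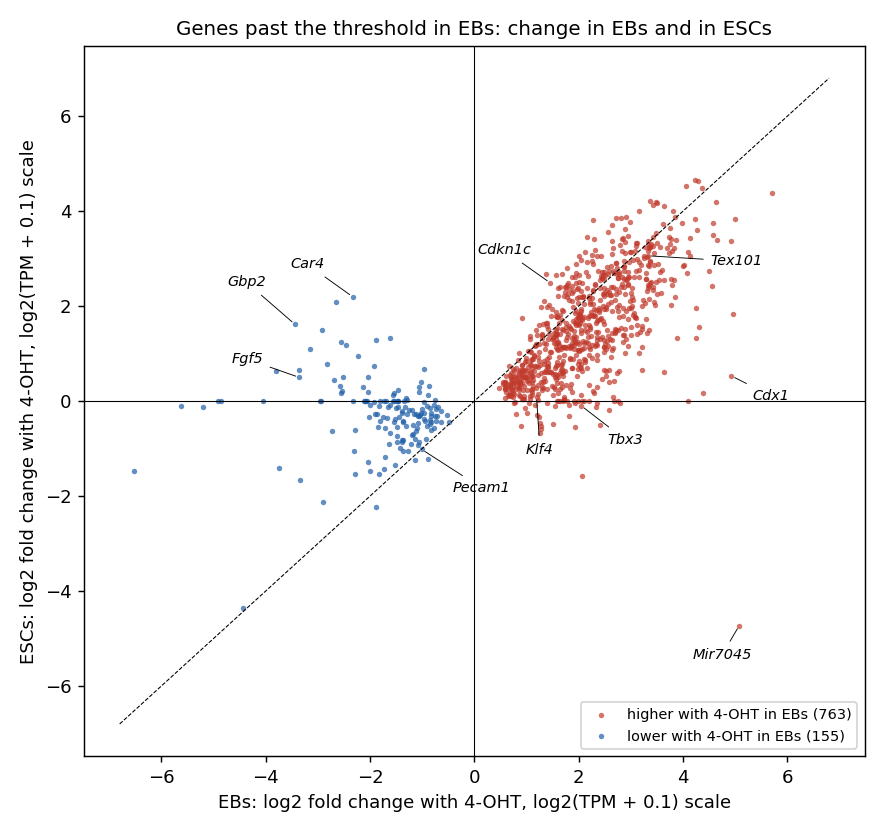
Log2 fold change with 4-OHT in EBs (x axis) and in ESCs (y axis), both on the log2(TPM + 0.1) scale, for the 763 genes higher (red) and 155 lower (blue) in EBs, with the dashed line marking equal change. Most red points lie above 0 in ESCs as well, *Tbx3*, *Klf4* and *Cdx1* lie near 0, and *Car4* and *Mir7045* have opposite signs in the 2 states.

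The difference itself, the EB change minus the ESC change, passed the test in 2 of 20279 genes (0.00986%, limma), with 1076 genes at an unadjusted p below 0.05. *Car4* was higher with 4-OHT in ESCs, at 4.50 and 4.17 TPM against 0.892 and 0.843 TPM, and lower in EBs, so that the difference was -4.53 on the log2 scale (adjusted p = 0.00904). *Mir7045*, a 63-base row, was at 0 in control EBs and mutant ESCs and had 2.21 and 4.82 TPM in mutant EBs and 2.63 and 2.48 TPM in control ESCs. For *Tbx3* the difference was 2.15 ± 0.30 (adjusted p = 0.107) and for *Klf4* 1.10 ± 0.36 (adjusted p = 0.712). The number of genes that passed moved with the fit, to 5 higher and 8 lower with a pseudocount of 1, 3 higher and 1 lower with the replicate number as a block, and 0 to 36 higher and 0 to 32 lower with 1 library left out. In the fit reported here, *Car4* and *Mir7045*, the only genes past this test, were called in both states in opposite directions. No call present in EBs and absent in ESCs was thus shown to differ between the states.

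The *Pcgf1* line, in which 4-OHT deletes the PCGF1 subunit of variant PRC1, provided 5 control and 5 mutant EB libraries. In it 4-OHT was given before EB formation rather than during it, so the schedules differ and values are set side by side. In these EBs 222 of 20594 genes were higher (1.08%) and 180 lower (0.874%). Of the genes higher in point mutant EBs, 66 were also higher without PCGF1 (8.65% of 763 and 29.7% of 222), and of the lower genes 7 were shared (4.52% of 155 and 3.89% of 180). The naive pluripotency list had a median of 0.95 in *Pcgf1* mutant EBs and 0.63 here, and Group 1 medians of 0.46 and 0.74. The germline and *Hox* lists were at -0.20 and 0.60 in *Pcgf1* mutant EBs against 1.41 and 2.60 here, and Group 2 at 0.05 against 0.93. *Pdgfa* rose by 1.5 on the log2 scale in *Pcgf1* mutant EBs (adjusted p = 0.0385), and *Tbx3* and *Klf4* had 1.47 and 1.86 without passing the test (adjusted p = 0.0668 and 0.124).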

How the data were processed

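Poly(A) RNA-seq libraries of the *Ring1A*-pm; *Ring1B*-cpm line (8) and the *Pcgf1* line (19) were used, grouped by their labels. The authors aligned reads with STAR (version 2.5.2b) to mm9 and deposited TPM per gene symbol. How TPM were made from counts, and the strandedness, are not given in the sources used here, so reads of overlapping or antisense genes cannot be told apart. No depth is known, and the number of samples limits the precision.

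Values were transformed to log2(TPM + 0.1), and limma (version 3.58.1 in R 4.3.3) estimated a mean per group in each line separately, with an empirical Bayes trend. Genes at 0 in every library of a line were left out. Fold changes are on this scale, which understates low genes. Tests were two-sided with Benjamini-Hochberg adjustment at 0.05, and the fit was tested on simulated data. An exact permutation test of 2 against 2 libraries cannot go below 0.333. Gene lists are described by counts and medians. Samples and lists were chosen with earlier results of these data known. Named genes were the mutated genes, those the study follows, the 12 highest and 12 lowest calls, up to 4 calls per list, up to 6 interaction calls each way, and marker genes, at a mean of at least 1 TPM, and others are named as members of a list. The promoter table first planned covered under 80% of genes, so windows were read from NCBIM37. The authors' DESeq2 was not used, since no counts were used here. Alternatives were another pseudocount, a filter, 2 scalings, a replicate block, an EB-only fit and leaving out libraries. A few genes that the naming rule covers are not reported here.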

Additional observations from a re-analysis of the deposited data

Results flagged for a closer look

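The EB and ESC effects of 4-OHT differed by the interaction test for 2 genes. For *Car4* the EB minus ESC difference was -4.53 on the log2 scale, with lower values in both mutant EBs and higher values in both mutant ESCs than in their controls (n = 2 per group, limma, adjusted p = 0.00904). For *Mir7045* it was 9.81, from rows with 2 whole groups at 0 and no value above 4.82 TPM, and this call has no counterpart once rows of small RNA genes are left out.

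Among the gene lists, the 18 naive pluripotency genes had a median log2 fold change of 0.63 in EBs and -0.34 in ESCs, and the 18 formative epiblast genes one of -1.42 in EBs and 0.50 in ESCs. In each list the library medians moved opposite ways in the 2 states without overlap between control and mutant libraries. The difference between the states was not tested for these lists, and control EB 2 lay closer to the ESCs than control EB 1 in many of their members.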

How the results depend on the processing

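The cause of the changes in the counts of calls was not tested. The 763 higher and 155 lower EB genes became 481 and 299 with quantile normalization, 634 and 295 with median-of-ratios scaling, 123 and 46 with the 4 EB libraries alone, and 10 to 103 and 10 to 29 with 1 EB library left out. More genes were called higher than lower without either mutant EB, but 10 were higher and 23 lower without control EB 1, and 28 and 29 without control EB 2, where fewer samples remain and a lone library is assumed to vary like the other groups. In ESCs the 475 higher genes became 167 with quantile normalization and the 40 lower genes 75 with median-of-ratios scaling. The interaction gave 5 higher and 8 lower genes with a pseudocount of 1, 0 to 36 and 0 to 32 with 1 library left out, and 0 higher genes without rows of small RNA genes, an alternative chosen after seeing the data. *Pcgf1* EBs had 369 higher genes with quantile normalization. The Group 1 median ranged from 0.62 to 1.06 with 1 EB library left out. The Group 2 median was 0.39 with a pseudocount of 1 and 0.54 with quantile normalization. The Group 3 median was -0.31 with quantile normalization and -0.39 to 0.20 with 1 EB library left out. None of the 119 named genes called in EBs changed direction under these alternatives. They were picked from calls on these same libraries and their groups did not overlap, so leaving out a library could not reverse them. The sign of the median changed in up to 5 of 44 lists, those of quantile normalization being *Pax*, FGF, PRC1, blood and Group 3. Of these 119 genes, 108 stayed past the threshold with a pseudocount of 1, 104 with median-of-ratios scaling, 83 with quantile normalization, 46 with the EB libraries alone and 7 to 13 with 1 EB library left out. The unknown depth limits what can be said of rows near 0.

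Control and mutant libraries share replicate numbers 1 and 2, and the labels do not say that a number marks a shared culture. Deviations of same-numbered libraries from their group means correlated at 0.322 between control and mutant EBs and at 0.106 to 0.381 over the line's group pairs (13695 genes), but with 2 numbers this does not show pairing. With the replicate number as a replicate block, EBs had 1666 higher and 390 lower genes, ESCs 1188 and 138, the interaction 3 higher, and *Pcgf1* EBs 994 and 1149, and all 119 named genes stayed past the threshold.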

Other observations

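Some genes that interferon can induce were among the lower EB genes, a set chosen after the values were seen. Of 11 *Gbp* genes, which encode guanylate-binding proteins, 4 were lower (*Gbp2*, *Gbp2b*, *Gbp3* and *Gbp8*), with a median log2 fold change of -1.98 in EBs and 0.88 in ESCs. *Irf1*, an interferon regulatory factor, had 83.8 and 62.7 TPM in control EBs and 22.7 and 26.4 TPM in mutant EBs (-1.56 ± 0.20, adjusted p = 0.0138, limma). *Ddx60*, an antiviral helicase, had 4.86 and 3.72 TPM in control EBs and 0.419 and 0.634 TPM in mutant EBs (-2.82 ± 0.56, adjusted p = 0.039). Of 7 *Ifitm* genes 2 were lower, and *Ifitm3*, a membrane protein that restricts viral entry, had 89.8 and 86.4 TPM in control EBs and 37.9 and 43.9 TPM in mutant EBs (-1.11 ± 0.15, adjusted p = 0.0138). Of 6 *Ifit* genes 1, *Ifit1*, was lower. Other families of this kind had positive medians, with 1 of 9 *Irf* genes lower, *Irf1*, and 0 higher (median 0.68), and 2 of 32 *H2* histocompatibility genes higher and 0 lower (median 0.53). Control ESCs had 13.1 and 15.6 TPM of *Irf1* and no more than 0.0675 TPM of *Gbp2*, so both genes were higher in control EBs than in control ESCs.

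Rows of small RNA genes were 524 of the genes tested, with 4 higher and 9 lower calls in EBs. In 5 of the lowest rows (*Mir7666*, *Mir7675*, *Mir6954*, *Mir7035* and *Rnu11*) control EB 2 had 1.22 times the TPM of control EB 1, the same ratio in each, as the same whole number of reads in both libraries would give. Without these rows 941 genes were higher and 187 lower in EBs.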
